A study of Mus musculus with 18 samples.

Results

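Glucocorticoid signalling was examined through 10 genes, the 2 corticosteroid receptor genes and 8 genes known to respond to glucocorticoids, among 54547 Ensembl gene identifiers counted in each library. The members were chosen by symbol, as Nr3c1, Nr3c2, Fkbp5, Sgk1, Tsc22d3, Zbtb16, Mt1, Mt2, Errfi1 and Cdkn1a, and each symbol matched 1 identifier. The tissue was medial prefrontal cortex, and the mice were C57BL6/J at postnatal day 100. PLX5622 was given in chow at 1200 mg/kg to the animals of 9 libraries, and a control diet to those of the other 9. PLX5622 blocks CSF1R, the receptor whose signal keeps microglia, the macrophages of brain tissue, alive. The treatment text is the same for all 18 libraries, and gives 21 days of PLX5622, then 44 days of drinking 15% ethanol every other day, with tissue taken 24 hours after the last ethanol. That text also stands on the control diet samples, so the exposure of a single animal cannot be read from it, and ethanol was not compared with water. The names of all 18 deposited tables also carry the abbreviation Sal, which the labels do not explain. The sources used here give neither sex nor corticosterone levels nor the hour of tissue collection.

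Corticosterone, the main glucocorticoid of mice, acts on the brain through a pair of nuclear receptors. The mineralocorticoid receptor binds it with high affinity, while the glucocorticoid receptor is engaged mainly at the daily peak and during stress. Chaperones hold the receptors in the cytoplasm, and hormone-bound receptor enters the nucleus, binds glucocorticoid response elements in DNA and raises transcription of genes such as Fkbp5, Sgk1 and Tsc22d3. Several of the targets also answer to other signals, the metallothionein genes Mt1 and Mt2 to zinc and Cdkn1a to p53.

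The sequences below show known regulatory motifs near members, in capitals, on the plus strand of GRCm38.p6, from RefSeq promoter windows of 250 bases before to 50 after a start site. They were chosen because Sgk1 held the full glucocorticoid response element and because Mt1 and Mt2 varied together across animals. Capitals in the last 2 lines are the motif on the minus strand. The motifs of the second Mt1 line and of the last Mt2 line lie just after the start site of their window.
Sgk1, glucocorticoid response element, chr10:21993695-21993721: gcggaaAGAACAGAATGTTCTcggaga
Mt1, metal response element, chr8:94179060-94179078: ccgctgTGCACACtggcgc
Mt1, metal response elements, chr8:94179089-94179117: tcTGCACTCcgcccgaaaagTGCGCTCgg
Mt2, metal response element, chr8:94172389-94172407: cgcctcTGCACCCggcccc
Mt2, metal response element, chr8:94172484-94172502: acccttTGCGCTCagctcc
Mt2, metal response element, chr8:94172562-94172580: gagggcGTGTGCAggctct
Mt2, metal response element, chr8:94172616-94172634: cgggtcGTGCGCAggccca

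The element in the Sgk1 window matches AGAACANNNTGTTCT, which reads the same on both strands. These letters occurred in 3 of 32851 windows (0.00913%), and in 1 of the 17 windows that belong to members. Its 6-base arm, AGAACA on either strand, occurred in 19.0% of all windows and in 4 of the 17, which belong to Sgk1 and Tsc22d3. The metal response element, to which the zinc-sensing factor MTF1 binds, was searched on both strands as TGCACNC, found in 12.6% of all windows, and as TGCGCNC, found in 15.4%. Of the 17 member windows, 2 held TGCACNC, those of Mt1 and Mt2. TGCGCNC was found in 4 of the 17, which belong to Mt1, Mt2, Nr3c2 and Sgk1. The 17 windows belong to Nr3c2, Fkbp5, Sgk1, Tsc22d3, Mt1, Mt2, Errfi1 and Cdkn1a. No binding was measured, so a match is a description of letters.

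Libraries held 990136 to 1742680 counts with PLX5622 and 1107406 to 1581868 on control diet. The summed level of 12 microglial markers was 108 to 191 CPM, counts scaled to 1000000 per library, with PLX5622 and 401 to 570 CPM on control diet, without overlap. All 11 markers that could be tested were lower, and Trem2 had no counts. In bulk tissue fewer cells of a type and less RNA per cell cannot be told apart. Ranges of the summed markers overlapped between the diets for astrocytes (3561 to 4015 and 3542 to 3949 CPM with PLX5622 and on control diet), oligodendrocytes (1182 to 2403 and 1379 to 2073 CPM) and neurons (7961 to 8637 and 7927 to 8772 CPM). None of the 30 tested genes on those 3 lists was called by edgeR, and 0 of them had an unadjusted p under 0.05. The summed choroid plexus markers had a median of 15.98 CPM with PLX5622 and 8.07 CPM on control diet, and the 1 that could be tested, Ttr, was at 1.49 ± 0.44 (log2, SE, edgeR adjusted p = 0.283). An unadjusted p under 0.05 was also found for 2 of 8 oligodendrocyte precursor and 1 of 9 endothelial markers, none of them called, and the part of these cells in the members' values was not tested. Control 8 stood apart from its diet, with a median chi-square per degree of freedom of 2.13 against the other controls, where the other 17 libraries had 1.248 to 1.648 within their diets. Without it the log2 fold changes between the diets were 0.0036 for Nr3c1, -0.018 for Nr3c2, 0.023 for Mt1, 0.0058 for Mt2 and 0.24 for Zbtb16, and none of the 10 was called.

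None of the 10 genes passed the test between the diets. Of the 10, all passed the count filter and 0 were called in PLX5622 over control, where 0.398% of all genes tested were called. A call was an adjusted p under 0.05 in edgeR's quasi-likelihood test, with the Benjamini-Hochberg method over 11051 genes. DESeq2 and limma-voom also called 0, and 1 member had an unadjusted p under 0.05, as did 6.79% of all genes tested. The log2 fold changes of 9 members were positive with a median of 0.10 over the 10, beside 5529 positive of 11051 and a median of 9.9e-05 over all genes tested. The PLX5622 and control libraries overlapped in each of the 10 genes. The small values move with single libraries: with 1 left out, the log2 fold change ran from 0.0031 to 0.061 for Nr3c1, from -0.057 to -0.0059 for Nr3c2 and from 0.12 to 0.26 for Fkbp5. It ran from 0.054 to 0.14 for Sgk1 and from 0.045 to 0.17 for Errfi1, and no member was called in any of the 18 fits.

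**Figure D1:**
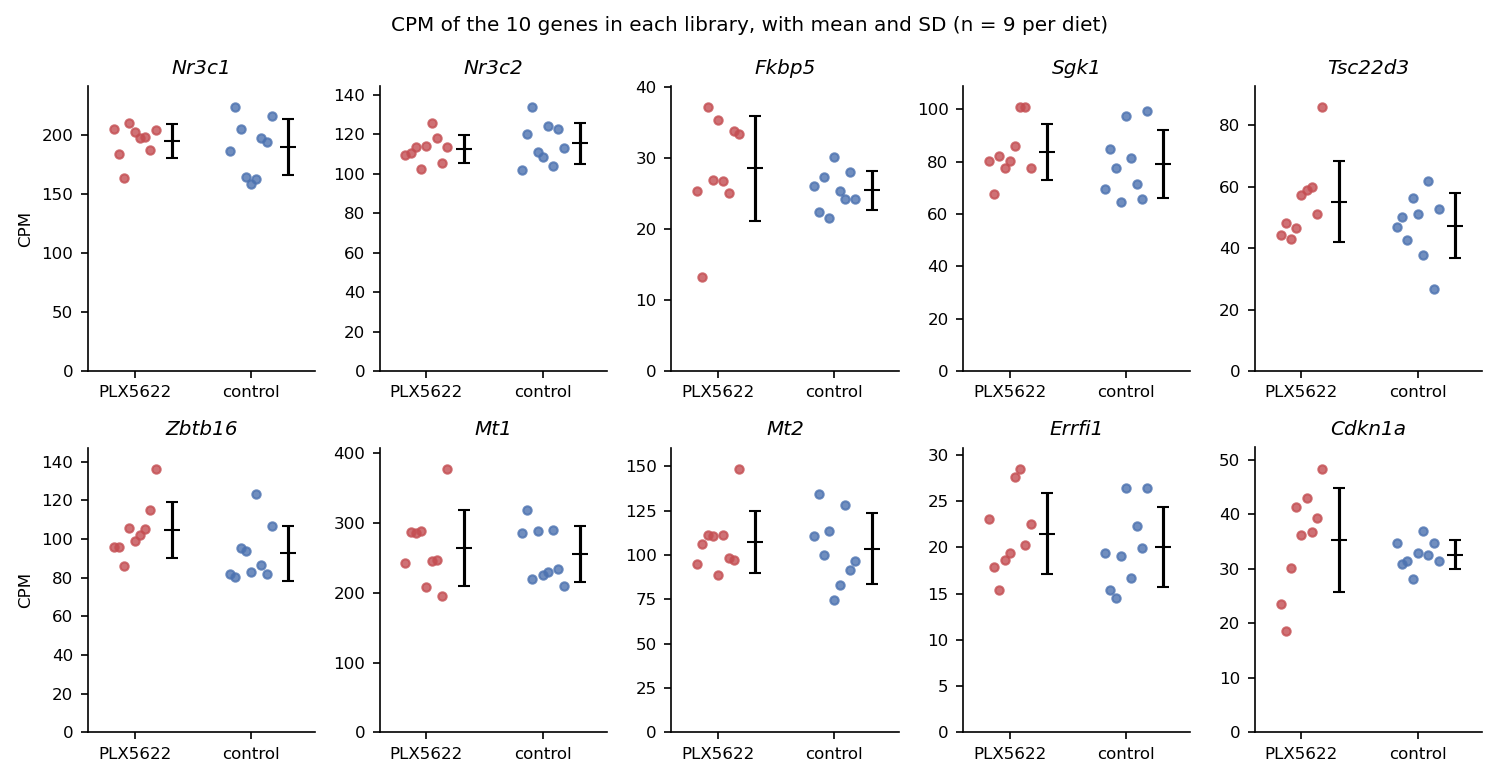
Level of each gene in CPM (vertical axes, from 0) in the 9 PLX5622 libraries and the 9 control libraries, in order of animal number from left to right, with the mean and SD beside the points. The groups overlap in all 10 panels, and PLX5622 35 is the highest point for Tsc22d3, Zbtb16, Mt1, Mt2 and Cdkn1a.

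The receptors gave the narrowest estimates. Nr3c1, the glucocorticoid receptor gene, had a lowest, median and highest level of 163, 198 and 210 CPM with PLX5622, and of 158, 193 and 223 CPM on control diet. The PLX5622 range lay within the control range. The mean was 194 ± 14 CPM with PLX5622 and 189 ± 24 CPM on control diet (SD, n = 9 each), a log2 fold change of 0.03 ± 0.06 (SE, edgeR adjusted p = 0.973). Its 95% interval, with 16 residual degrees of freedom, runs from 0.937-fold to 1.11-fold.

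Nr3c2, the mineralocorticoid receptor gene, had a lowest, median and highest level of 102, 114 and 126 CPM with PLX5622, and of 102, 113 and 134 CPM on control diet. It was the only member with a negative fold change, -0.03 ± 0.06 on the log2 scale (SE, edgeR adjusted p = 0.972), with an interval of 0.892-fold to 1.07-fold. The SD over animals was 6.10% of the mean with PLX5622 and 9.06% on control diet, where counting alone would give 8.12% and 8.11%. The spread of Nr3c2 over animals was therefore about that of counting.

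Fkbp5 and Sgk1 encode a brake and an effector of the pathway. Fkbp5, whose product is a co-chaperone that lowers the affinity of the glucocorticoid receptor for hormone, had a lowest, median and highest level of 13.2, 26.9 and 37.2 CPM with PLX5622, and of 21.5, 25.4 and 30.1 CPM on control diet. The PLX5622 libraries lay both above and below the controls, 4 of them over the highest control and PLX5622 26 under the lowest. The fold change was 0.18 ± 0.13 (log2, SE, edgeR adjusted p = 0.864), with an interval of 0.941-fold to 1.36-fold.

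Sgk1, a kinase that regulates ion channels and transporters, had a lowest, median and highest level of 67.8, 80.4 and 101 CPM with PLX5622, and of 64.6, 77.4 and 99.4 CPM on control diet. Of the PLX5622 libraries 8 lay above the control median, but the ranges nearly coincided. The fold change was 0.09 ± 0.08 (log2, SE, edgeR adjusted p = 0.903), with an interval of 0.948-fold to 1.20-fold. Its promoter window with the full response element is shown above.

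Tsc22d3 and Zbtb16 encode transcriptional regulators. Tsc22d3, whose product GILZ carries part of the anti-inflammatory action of glucocorticoids, had a lowest, median and highest level of 43.0, 51.0 and 85.9 CPM with PLX5622, and of 26.6, 50.2 and 61.8 CPM on control diet. The medians were close, and 1 library, PLX5622 35, lay above every control. The fold change was 0.22 ± 0.14 (log2, SE, edgeR adjusted p = 0.854), and 0.11 ± 0.11 without PLX5622 35 (adjusted p = 0.971). Without control 10, the lowest library, it was 0.14 ± 0.11 (adjusted p = 0.872).

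Zbtb16, the gene of the zinc-finger factor PLZF, had the smallest p of the members. Its lowest, median and highest level was 86.0, 102 and 136 CPM with PLX5622, and 80.3, 86.7 and 124 CPM on control diet. Of the PLX5622 libraries 8 lay above the control median and 1 above the highest control. The fold change was 0.17 ± 0.08 (log2, SE), with an unadjusted p of 0.031 by edgeR that did not pass after adjustment (0.659) and ranked 523 among all genes. Without control 8, the highest control, it was 0.24 ± 0.07 (adjusted p = 0.181), and without PLX5622 35 it was 0.12 ± 0.07 (adjusted p = 0.918). DESeq2 gave 0.17 ± 0.09. An exact permutation test of the difference in mean CPM between the diets gave an unadjusted p of 0.0991.

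**Figure D2:**
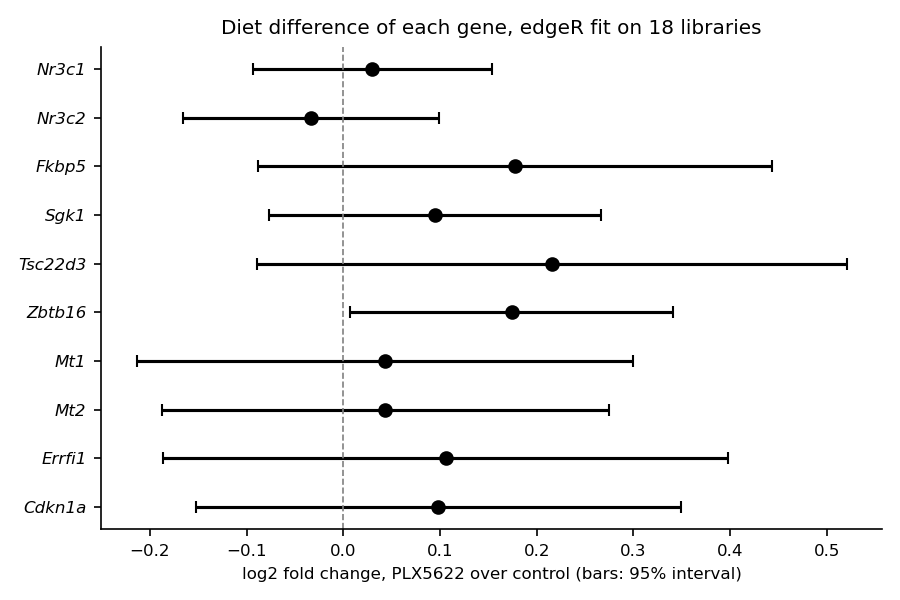
Log2 fold change of PLX5622 over control for each gene (horizontal axis), with 95% intervals from the edgeR fit on 18 libraries. Both receptors sit near 0 with the shortest bars, and Zbtb16 has the only interval that does not reach 0, before adjustment over all genes.

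The metallothionein genes encode small proteins that bind zinc and copper and lie 5513 bases apart on chromosome 8, Mt2 before Mt1 (GENCODE M21, GRCm38). Mt1 had a lowest, median and highest level of 195, 246 and 378 CPM with PLX5622, and of 209, 234 and 319 CPM on control diet. Mt2 had a lowest, median and highest level of 88.6, 106 and 149 CPM with PLX5622, and of 74.8, 100.0 and 134 CPM on control diet. The highest library was PLX5622 35 within PLX5622 and control 3 within the controls, for both genes. The fold changes were 0.04 ± 0.12 for Mt1 and 0.04 ± 0.11 for Mt2 (log2, SE, edgeR adjusted p = 0.988 and 0.983). Without PLX5622 35 both turned to the other sign, at -0.04 ± 0.10 and -0.03 ± 0.08, and neither value was called.

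The pair varied together from animal to animal. After removal of the diet means, Pearson's r between Mt1 and Mt2 was 0.83 over 18 libraries (permutation p = 4e-05 within diets, adjusted 0.0018 over 45 pairs of members) and Spearman's rho was 0.83 (permutation p = 0.00012, adjusted 0.0054). Without PLX5622 35 and control 3, the libraries farthest from the median of Mt1, r was 0.70. Within PLX5622 r was 0.89 and within the controls 0.83. The longest exact stretch that transcripts of the genes share is 20 bases, so that longer reads with no mismatch can be told apart. A gene model on the other strand, Gm45774, covers 82.8% of Mt2 and had 1 count in all libraries, against 2601 for Mt2 (1344 with PLX5622 and 1257 on control diet). The spread of Mt1, 20.5% of the mean with PLX5622 and 15.5% on control diet, was above the 5.37% and 5.51% that counting gives.

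**Figure D3:**
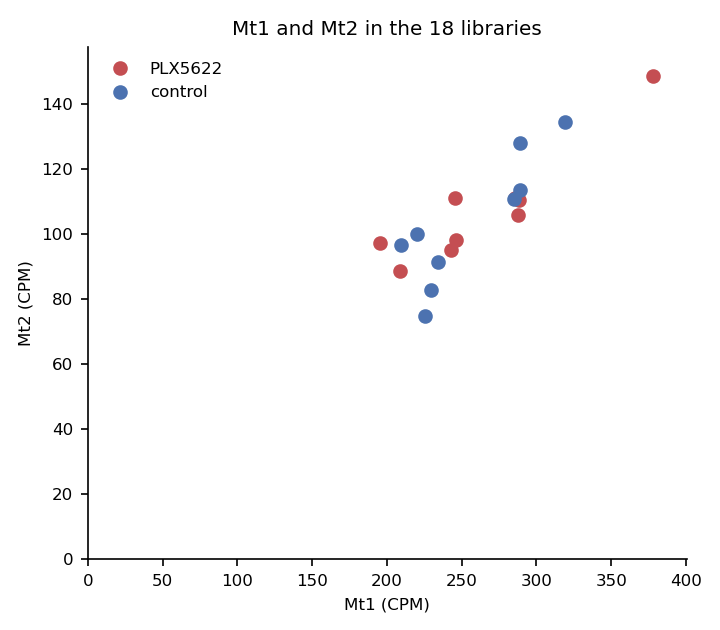
Mt2 against Mt1 in CPM, 1 point per library, for PLX5622 and control. Points of both diets lie along 1 band, and PLX5622 35 at 378 and 149 CPM is the farthest to the upper right.

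No other pair passed after adjustment. The next by p were Fkbp5 with Cdkn1a, at an r of 0.67 (permutation p = 0.031, adjusted 0.400) and a rho of 0.43 (p = 0.107, adjusted 0.686), and Sgk1 with Mt1, at -0.50 (p = 0.037, adjusted 0.400) and -0.50 (p = 0.046, adjusted 0.514). The r of Fkbp5 with Cdkn1a was 0.47 without PLX5622 26 and 27, and that of Sgk1 with Mt1 was -0.40 without control 11 and 7. The median r was 0.10 over the 45 pairs, with 33 positive, beside -0.001 over all pairs of 9153 genes that averaged 20 counts or more.

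Errfi1 and Cdkn1a act on growth and division. Errfi1, whose product MIG6 inhibits the EGF receptor, had a lowest, median and highest level of 15.4, 20.3 and 28.5 CPM with PLX5622, and of 14.5, 19.4 and 26.5 CPM on control diet. Both ranges were alike, and the spread of 20.4% with PLX5622 and 21.7% on control diet was close to the 18.9% and 19.8% of counting. The fold change was 0.11 ± 0.14 (log2, SE, edgeR adjusted p = 0.958), with an interval of 0.879-fold to 1.32-fold.

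Cdkn1a, which encodes the cyclin-dependent kinase inhibitor p21, had a lowest, median and highest level of 18.7, 36.9 and 48.4 CPM with PLX5622, and of 28.2, 32.5 and 37.1 CPM on control diet. The PLX5622 libraries spread on both sides of the controls, 4 above the highest and 2 below the lowest. The means were 35.3 ± 9.5 CPM with PLX5622 and 32.6 ± 2.6 CPM on control diet (SD, n = 9 each), and the fold change was 0.10 ± 0.12 (log2, SE, edgeR adjusted p = 0.953). It was 0.02 ± 0.12 without PLX5622 35 and 0.17 without PLX5622 25 or without PLX5622 26, none of them called. The SD was 27.0% of the mean with PLX5622 and 7.96% on control diet, where counting gives 15.0% and 15.3%. Fkbp5 showed the same order of spreads, 25.8% with PLX5622 and 10.8% on control diet, where counting gives 16.9% and 17.3%. The difference of the spreads was not tested, and control values below the counting error show how far 9 libraries can fall from it.

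The animal numbers in the titles run from 25 to 35 with PLX5622 and from 2 to 11 on control diet, so that number and diet cannot be told apart across the diets. Within each diet the order of the numbers equals the order of the sequencing sample numbers in the names of the deposited tables, in 18 of 18 libraries, and those sample numbers alternate between the diets. An effect of the order of animals and one of the order of samples can therefore not be told apart either. The sources used here do not say what the animal number stands for. With 1 slope for both diets, 0 members were called on the animal number (edgeR quasi-likelihood test), where 0.317% of all genes tested were called. DESeq2 and limma-voom called 0 members, and 4 of the 10 had an unadjusted p under 0.05 by edgeR, beside 9.30% of all genes tested. The 4 were Zbtb16, Cdkn1a, Sgk1 and Errfi1. Cdkn1a had the steepest common slope, 0.055 ± 0.017 (log2 per number, SE, edgeR adjusted p = 0.163). The slopes of 9 members were positive with a median of 0.026 log2 units per number over the 10, beside 5553 positive of 11051 and a median of 9.3e-05 over all genes tested. Zbtb16 had the smallest p, with 0.038 ± 0.011 (log2 per number, SE, edgeR adjusted p = 0.126), 0.0467 without control 9 and 0.077 to 0.358 under all other settings, except 0.0505 without control 10.

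Within PLX5622 the slopes of Cdkn1a, Tsc22d3 and Zbtb16 stood highest and none passed. Of the 10 members 0 were called within PLX5622, where 0.0814% of all genes were called. An unadjusted p under 0.05 by edgeR was found for 3 of them, beside 7.09% of all genes. DESeq2 and limma-voom also called 0. Cdkn1a had 23.6, 18.7 and 30.2 CPM in PLX5622 25, 26 and 27, and 36.3 to 48.4 CPM in the 6 later animals. Its slope was 0.091 ± 0.021 (log2 per number, SE, edgeR adjusted p = 0.056). The adjusted p was 0.030 with the rank in place of the number and 0.040 when scaled by total counts only. It was 0.054 by limma-voom and 0.318 by DESeq2. Over the 18 fits that leave out 1 library it ran from 0.0275 to 0.544, and the highest values were without PLX5622 25 (0.544), 26 (0.391) and 35 (0.316). It passed without control 8 (0.037), control 9 (0.045), PLX5622 28 (0.0275), PLX5622 29 (0.045) or PLX5622 34 (0.047).

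Tsc22d3 had 43.0 to 48.3 CPM in PLX5622 25 to 28, 51.0 to 59.8 CPM in 29 to 34, and 85.9 CPM in 35. Its slope was 0.072 ± 0.021 (edgeR adjusted p = 0.274), 0.040 ± 0.024 without PLX5622 35 (adjusted p = 0.812) and 0.094 ± 0.021 without PLX5622 34 (adjusted p = 0.047). Zbtb16 had 86.0 to 105 CPM in the 7 animals up to PLX5622 32, then 115 CPM in 34 and 136 CPM in 35. Its slope was 0.046 ± 0.014 (adjusted p = 0.287), and 0.031 ± 0.017 without PLX5622 35 (adjusted p = 0.772). The slopes of the other members within PLX5622 were smaller, from 0.005 in Nr3c2 to 0.039 in Fkbp5.

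**Figure D4:**
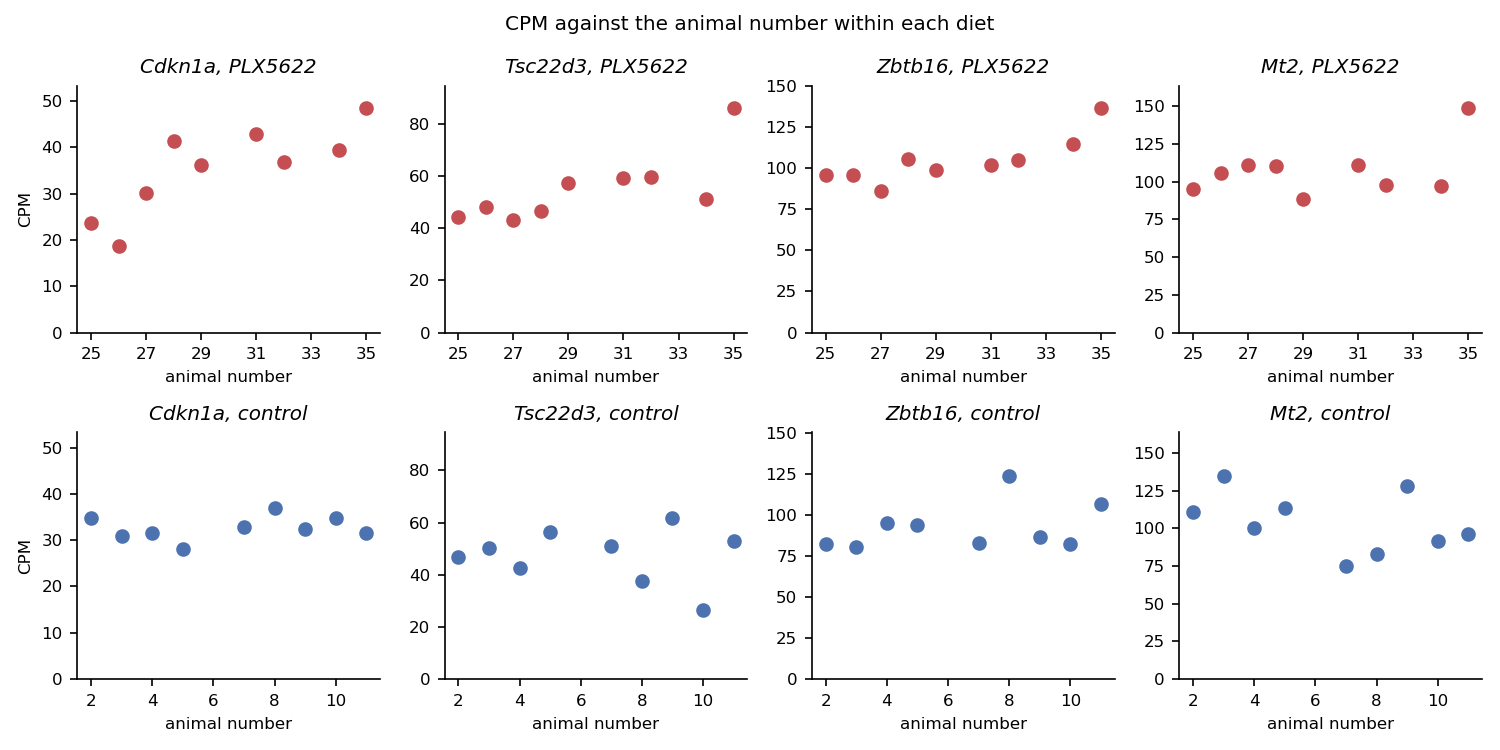
CPM of Cdkn1a, Tsc22d3, Zbtb16 and Mt2 (vertical axes, from 0) against the animal number, PLX5622 above and control below. Later PLX5622 animals have higher values of Cdkn1a, Tsc22d3 and Zbtb16, with slopes that did not pass, while Mt2 stands out only in PLX5622 35 at 149 CPM.

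Correlations were also computed, without a count model. Within PLX5622 the animal number and Cdkn1a (log2 CPM) had a Pearson's r of 0.79 (exact permutation p = 0.0096), with a rank correlation (Spearman's rho) of 0.80 (exact p = 0.014). For Tsc22d3 r was 0.78 (exact p = 0.0080) and rho 0.82 (exact p = 0.011), and for Zbtb16 r was 0.83 (exact p = 0.0019) and rho 0.85 (exact p = 0.0061). With animals 34 and 35 left out, as those farthest from the median number, the r of Cdkn1a was 0.77, that of Tsc22d3 0.87 and that of Zbtb16 0.60. None passed the adjustment over 22102 relations, with adjusted p of 0.763, 0.763 and 0.683 for r and 0.757, 0.746 and 0.718 for rho. No gene at all passed in either diet, so that the share called was 0% of the 11051 genes in each. Each exact p is a share of 362880 orders, so a gene in perfect order could not pass alone over 22102 relations. The lack of calls by this test therefore says little. In the other 7 members r within PLX5622 ran from 0.041 in Mt1 to 0.57 in Sgk1, with no exact p under 0.10.

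Within the control diet 0 members were called on the animal number, where 0.0543% of all genes were called, and 0 had an unadjusted p under 0.05, against 6.52% of all genes. DESeq2 and limma-voom called 0. Cdkn1a was at 0.007 ± 0.025, Tsc22d3 at -0.010 ± 0.025 and Zbtb16 at 0.026 ± 0.017 (log2 per number, SE). Mt1 and Mt2 had the most negative slopes, -0.038 ± 0.028 and -0.032 ± 0.022. Errfi1 had the steepest, 0.057 ± 0.032 (edgeR adjusted p = 0.791), with an r of 0.60 (exact p = 0.092, adjusted 0.845) and a rho of 0.58 (exact p = 0.108, adjusted 0.844).

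The slopes were not shown to differ between the diets. Of the members 0 were called for the slope within PLX5622 minus that within control, as were 0% of all genes, and DESeq2 and limma-voom called 0 members. The difference was 0.084 ± 0.033 for Cdkn1a and 0.082 ± 0.033 for Tsc22d3 (log2 per number, SE, edgeR adjusted p = 0.984 for both, unadjusted 0.012 and 0.017). These were the only members of the 10 with an unadjusted p under 0.05, beside 4.52% of all genes. With the animal number as a covariate, 0 members were called between the diets, where 0.525% of all genes were called, and Zbtb16 was at 0.17 ± 0.07 (adjusted p = 0.525).

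**Figure D5:**
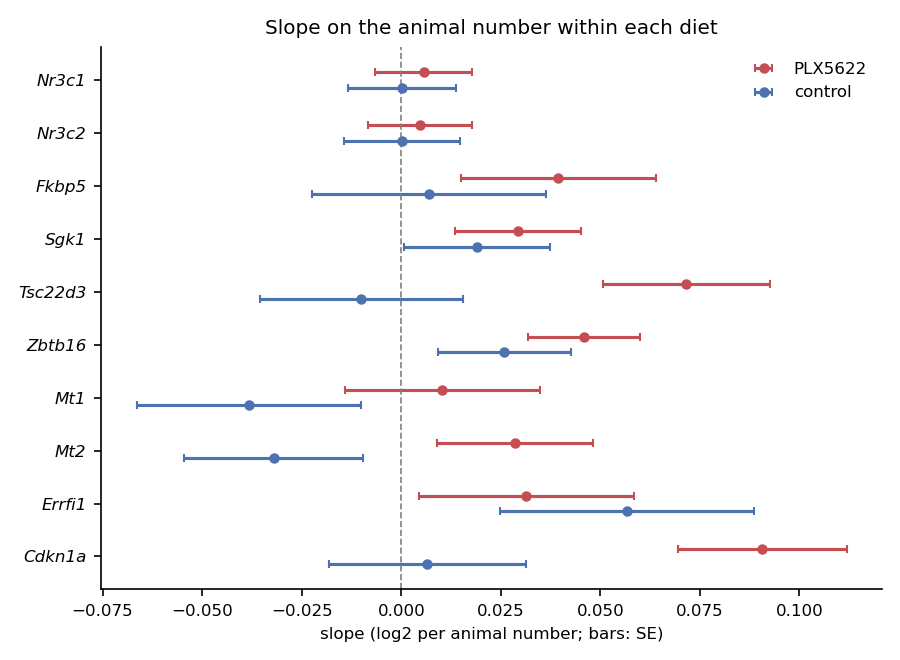
Slope on the animal number within PLX5622 and within control for each gene, in log2 units per number, with SE bars. The slopes within PLX5622 of Cdkn1a at 0.091 and Tsc22d3 at 0.072 lie farthest from 0, and both receptors lie near 0 in both diets.

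Values of other genes moved with the diets and along the same numbers. Of 14 tested immediate-early genes, a class that neuronal firing switches on fast, all 14 had positive log2 fold changes between the diets. Their median was 0.45 and 2 were called higher, where 0.0452% of all genes tested were called higher. Over all genes tested 5529 of 11051 were positive, with a median of 9.9e-05. Junb, a transcription factor, had 34.3 ± 8.7 CPM with PLX5622 and 22.5 ± 5.0 CPM on control diet (SD, n = 9 each), a log2 fold change of 0.59 ± 0.13 (SE, edgeR adjusted p = 0.0149). Fosb, its dimer partner, was at 0.86 ± 0.20 (adjusted p = 0.016). On the number, 7 of the 14 were called upward on the common slope and 0 downward, where 0.163% and 0.154% of all genes tested were. The median over the 14 was 0.076 log2 units per number, beside 9.3e-05 over all genes tested. Arc, a synaptic effector, rose by 0.14 ± 0.01 per number and Fos by 0.12 ± 0.02 (edgeR adjusted p = 1.7e-11 and 5.6e-05). Averaged over the list, log2 CPM within PLX5622 stood at 4.84 in animal 25 and at 5.01 to 5.75 in the others. On control diet this average was also higher in later animals, 4.485 and 4.555 in animals 2 and 3, and 5.309 and 5.262 in animals 10 and 11. The part of neuronal activity in the fold changes of the members and in the slopes of Cdkn1a, Tsc22d3 and Zbtb16 was not tested. In PLX5622 35, 5 of the 10 members had their highest PLX5622 value, among them Mt1 and Mt2, which varied together. The share of all genes with their highest PLX5622 value in that library was not counted. PLX5622 35 also had the highest summed astrocyte markers of all libraries, 4015 CPM, and the lowest microglial markers, 108 CPM, and their part was not tested.

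Other genes known to be induced by glucocorticoids gave 0 calls between the diets and 2 on the animal number. Of 26 on the list 17 could be tested. Between the diets 0 were called and 4 had an unadjusted p under 0.05, beside 750 of 11051 over all genes, with a median log2 fold change of 0.079. Dusp1, a phosphatase that switches off MAP kinases and is also an immediate-early gene, had 43.5 ± 13.3 CPM with PLX5622 and 27.6 ± 5.8 CPM on control diet (SD, n = 9 each), a log2 fold change of 0.65 ± 0.17 (SE, edgeR adjusted p = 0.164). Mertk, a receptor for phagocytosis, had 60.6 ± 5.3 and 69.5 ± 9.0 CPM in the same order of diets and was at -0.19 ± 0.08 (adjusted p = 0.604). On the animal number 2 of the 17 were called, both upward, where 0.317% of all genes tested were called. An unadjusted p under 0.05 by edgeR was found for 6 of the 17, beside 1028 of 11051 over all genes. Of the 17 slopes 15 were positive, beside 5553 of 11051. Arl4d, a small GTPase, rose by 0.12 ± 0.02 log2 units per number (SE, edgeR adjusted p = 0.00054) and Dusp1 by 0.076 ± 0.018 (adjusted p = 0.021).

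The machinery around the receptors was not called in either fit. All 14 chaperone and co-chaperone genes were tested, with a median log2 fold change of 0.019 between the diets and 0 at an unadjusted p under 0.05. Ppp5c, a phosphatase in the receptor complex, was at 0.15 ± 0.09, and Dnajb1, a heat shock protein, at 0.14 ± 0.08 (log2, SE). On the animal number 2 of the 14 had an unadjusted p under 0.05 by edgeR, beside 1028 of 11051 over all genes. They were Ppid and Hspa8, both chaperone genes, with slopes of -0.035 ± 0.013 and -0.049 ± 0.016 (edgeR adjusted p = 0.329 and 0.338). Of the 14 slopes 4 were positive, beside 5553 of 11051 over all genes. All 13 coregulator genes were tested, with a median of 0.022 and 0 at an unadjusted p under 0.05. Ncoa2, a coactivator, was at -0.09 ± 0.06 and Smarca4, a chromatin remodeller, at 0.08 ± 0.06. The slopes of Nrip1 and Ncoa2 were -0.016 ± 0.011 and -0.013 ± 0.009.

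Of 12 genes of steroid metabolism and transport 5 were tested and 0 had an unadjusted p under 0.05 in either fit. Hsd11b1, whose product regenerates active glucocorticoid inside cells, had 15.5 ± 3.8 CPM with PLX5622 and 13.5 ± 3.4 CPM on control diet (SD, n = 9 each), a log2 fold change of 0.21 ± 0.16. Srd5a3 was at -0.06 ± 0.14 between the diets. Abcb1a and Abcb1b, which encode efflux pumps of the blood-brain barrier, had slopes of -0.028 ± 0.019 and -0.037 ± 0.032.

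Lists tied to single members gave 0 calls by edgeR in either fit. Among relatives and substrates of Sgk1, with 8 of 10 tested, Ndrg1 was at 0.15 ± 0.12 and Ndrg2 at 0.11 ± 0.09 between the diets, and Sgk3 and Foxo1 had slopes of -0.052 ± 0.016 (adjusted p = 0.175) and 0.028 ± 0.016. In the metal response list, with 6 of 8 tested, Slc39a10, a zinc importer, was at 0.13 ± 0.06 and Mt3, the brain metallothionein, at 0.11 ± 0.06. The slopes of Slc39a10 and Slc39a14 were 0.021 ± 0.009 and 0.032 ± 0.019. Among p53-responsive genes, with 7 of 12 tested, Ccng1 was at 0.20 ± 0.08 (adjusted p = 0.612) and Mdm2 at 0.17 ± 0.10, and Bax and Trp53 had slopes of -0.045 ± 0.024 and 0.028 ± 0.018. Among ErbB receptors and ligands, with 7 of 13 tested, the ligand Tgfa was at -0.39 ± 0.14 (adjusted p = 0.421) and Nrg3 at -0.04 ± 0.04, and Hbegf and Egfr had slopes of -0.068 ± 0.029 and 0.018 ± 0.020. Unadjusted p under 0.05 were counted between the diets in 0, 1, 1 and 1 of these lists' genes, and on the number in 1, 1, 0 and 1. The medians between the diets were 0.004, 0.11, 0.07 and -0.009 on the log2 scale.

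Genes most like each member across the 18 libraries, after removal of the diet means, were looked up among 9153 genes as a description. Cdkn1a was most like Fam20a and Arl4d, with r of 0.86 and 0.84. Arl4d is, besides Dusp1, a glucocorticoid-induced gene called on the animal number above. The r with Fam20a was 0.93 within PLX5622 and 0.25 within control, and that with Arl4d 0.93 and 0.66. For the other genes named here it was at least 0.61 within each diet. Fkbp5 was most like Ptgfrn (0.85) and Gm14270 (0.84), Sgk1 like Ago1 (0.82) and Prkar2b (0.76), and Tsc22d3 like Tsnax (0.82) and Atf4 (0.75). Zbtb16 was most like Arhgap5 (0.85) and Gclm (0.84), Errfi1 like Naa30 (0.86) and Cxxc1 (0.80). Mt1 was most like Adgrb2 (0.90) and Hpca (0.82), and Mt2 like Tnpo3 (0.81) and Gtf2a2 (0.79). Nr3c1 was most like Mei1 (0.75) and Ago3 (0.73), and Nr3c2 like Polk (0.81). Each is among the highest of 9153 values, and both genes of a pair share libraries and depth.

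In GENCODE M21 on GRCm38, Nr3c1 (ENSMUSG00000024431.14) lies on chromosome 18 from 39410545 to 39519421 and Errfi1 (ENSMUSG00000028967.10) on chromosome 4 from 150853919 to 150868892. On chromosome 8, Nr3c2 (ENSMUSG00000031618.13) runs from 76899442 to 77245012, Mt2 (ENSMUSG00000031762.7) from 94172664 to 94173568 and Mt1 (ENSMUSG00000031765.8) from 94179082 to 94180327. Further positions are chromosome 17 from 28399094 to 28517527 for Fkbp5 (ENSMUSG00000024222.16) and from 29090976 to 29100727 for Cdkn1a (ENSMUSG00000023067.13). Sgk1 (ENSMUSG00000019970.15) lies on chromosome 10 from 21882184 to 21999903, Tsc22d3 (ENSMUSG00000031431.13) on chromosome X from 140539528 to 140600659 and Zbtb16 (ENSMUSG00000066687.5) on chromosome 9 from 48654297 to 48836222. A count covers a whole gene, and its reads were not split by exon or UTR.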

How the data were processed

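The authors deposited 1 table of raw read counts per gene for each of 18 libraries (single-end reads per the labels, biased to the 3' UTR per the series' design text). The submitters' processing notes name Bowtie2 2.3.4.3 and HTSeq 0.11.0, FastQC 0.11.8, DESeq2 1.10.1 and R 3.5.1, with the builds mm10 and GRCm38.p6; the sources used here give neither the strand setting nor whether duplicates were removed. Identifiers were matched to symbols without version (53620 of 54547). Counts were tested with edgeR 4.0.16 in R 4.3.3 (filterByExpr, minimum count 10, TMM scaling, robust quasi-likelihood fit, Benjamini-Hochberg adjustment over 11051 genes), with diet alone, with the animal number centred within its diet, and with 1 slope per diet. SE come from the F statistic. CPM use TMM-scaled totals, and log2 CPM a prior count of 2. Correlations with the number were tested over all 362880 orders, and pairs of members with 100000 permutations within diets. Named genes are all members and, per list, called genes and the 2 with the smallest p in each fit. Members and lists were chosen with earlier results of these data known. The fits were checked on simulated counts. Alternatives were DESeq2 1.42.0, limma-voom (limma 3.58.1), other scalings and count filters, the rank of the number, and leaving out each library. For slopes within a diet, DESeq2 and leaving out libraries were added after seeing the data. No library was treated as a duplicate, since the closest pair of a diet still had a chi-square per degree of freedom of 1.129. Separate cultures, cages or litters are not stated, so p-values measure the spread between these animals. For each member the 2 genes most like it are named, except 1 that is not reported here.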

Additional observations from a re-analysis of the deposited data

Results flagged for a closer look

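In 2 of 20 groups of 9 libraries a single value stood apart from the others by its gap relative to the range. Chance gives about 1 in 20 for independent groups, but the genes share the libraries of each diet, so these groups are not independent. Tsc22d3 had 85.9 CPM in PLX5622 35, against 59.8 CPM in the next library of that diet. Mt2 had 149 CPM in the same library, against 111 CPM in the next. Just under the limit of 0.493 for the gap over the range were Fkbp5 in PLX5622 26, at 0.492, and Mt1 in PLX5622 35, at 0.490.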

How the results depend on the processing

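The diets share no replicate numbers, so no replicate block was fitted. Adjacent sequencing sample numbers hold 1 library of each diet, but no label says that they pair the animals, and a block on them was not run. The count of members called between the diets stayed at 0 under every alternative run, as did those within control and for the difference of slopes. At a mean of at least 50 counts Fkbp5, Errfi1 and Cdkn1a were left out by the filter and could not be called. Members called within PLX5622 were 1 (Cdkn1a) with the rank of the number and 1 with total counts only, and 0 to 2 without 1 library; on the common slope they were 0 to 1 without 1 library. Genes higher with PLX5622, 5 as reported, were 14 with limma-voom, 20 without a count filter, 0 at a mean of at least 50 counts, 17 with the number as covariate, and 2 to 13 without 1 library (8 without control 8). Genes lower, 39, were 92 without a filter and 8 at a mean of at least 50 counts. Genes upward on the number, 18, were 9 at a mean of at least 50 counts. Genes downward, 17, were 8 with DESeq2, 11 with total counts only, 51 without a filter, 10 at a mean of at least 50 counts, and 6 to 53 without 1 library (31 without control 8). The cause was not tested, beyond the number of genes that each filter leaves. Signs turned in the following values, none of them called. The r of Nr3c1 with the number on control diet was 0.024 with total counts only. Without 1 library the log2 fold change between the diets ran from -0.040 to 0.092 in Mt1 and -0.031 to 0.095 in Mt2. The common slope ran from -0.0024 to 0.0093 in Nr3c1, -0.0024 to 0.0065 in Nr3c2 and -0.020 to 0.012 in Mt2. The slope within PLX5622 ran from -0.0016 to 0.014 in Nr3c1, -0.042 to 0.034 in Mt1 and -0.0052 to 0.044 in Mt2. That within control ran from -0.016 to 0.015 in Nr3c1, -0.015 to 0.0089 in Nr3c2, -0.00092 to 0.015 in Fkbp5, -0.0054 to 0.035 in Sgk1 and -0.030 to 0.021 in Tsc22d3. The difference of slopes ran from -0.0092 to 0.022 in Nr3c1, -0.0041 to 0.019 in Nr3c2, -0.0052 to 0.035 in Sgk1 and -0.0037 to 0.072 in Mt1. Errfi1, Fkbp5 and Cdkn1a are limited by depth, with means per diet between 26.8 and 48.7 counts per library, where counting alone spreads them by 15.0% to 19.8%.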
